A study of Danio rerio with 4 samples.

Results

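The liver of fasted wild-type (WT) zebrafish larvae at 6 days post-fertilization (dpf) was described from the 2 WT libraries of the series, replicates 1 and 4, out of 4 libraries in all. All 15615 protein-coding genes among the 16405 genes listed were taken, the 2 libraries were ranked together by their mean level, and no value of the *pex5*-/- libraries was used. The study fasted WT and *pex5*-/- larvae, which lack the receptor that brings matrix proteins into the peroxisome, and sequenced RNA of the dissected livers to compare the genotypes. Both libraries were labelled wild type at 6 dpf, and the paper describes the larvae as fasted. No fed larvae were among the samples analysed here. The labels do not say how many livers entered a library or whether the libraries came from separate clutches, so a difference between them may be technical or biological. Without a second group no test was made. Each difference between the libraries is given as a ratio with its 95% counting interval, which covers the sampling of molecules only.

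The liver makes most of the proteins of the blood plasma, among them the apolipoproteins that carry lipids, the retinol and iron carriers, the clotting factors and complement. Its hepatocytes also take apart amino acids and purines, detoxify foreign compounds and release glucose when no food comes in. In the fasted state glycogen breakdown and gluconeogenesis supply glucose while fatty acids are oxidised in mitochondria and peroxisomes.

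Libraries were made by CEL-Seq2, which reads each polyadenylated RNA near its 3' end and tags it with a random barcode (a unique molecular identifier, UMI), and each captured molecule was therefore counted once whatever the length of its gene. Levels are given in TMM, the authors' scaled counts after their logarithm was undone, and a share is a gene's level as a percent of the level of all protein-coding genes in the same library, which no scaling of the library can change. Replicate 1 held 1342534 deduplicated reads and replicate 4 held 1217737. Protein-coding genes took 68.9% and 69.7% of the total, and ribosomal RNA of the mitochondrial genome took 29.6% and 28.7%. One read was worth 0.710 TMM in replicate 1 and 0.785 TMM in replicate 4, and the 3 reads that a count of 0 allows for were worth 2.13 and 2.36 TMM. Reads were found for 10964 and 10394 protein-coding genes, for 8733 in both libraries and for 2990 in neither. For genes above 1% of the total, the counting interval of a share reached at most 0.0657 percentage points to either side.

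A small number of genes made up most of this transcriptome. The most abundant gene held 10.5% of the protein-coding total, the first 2 held 18.5% (19.4% in replicate 1 and 17.6% in replicate 4), the first 10 held 33.6% ± 0.85 (SD, n = 2) and the first 100 held 63.2%. Ranked by the mean of both libraries, 5 genes sufficed for 25% of the total, 38 for 50%, 247 for 75% and 1195 for 90%. The mean level reached 1000 TMM in 90 genes, 100 TMM in 611 and 10 TMM in 3331, and these 3331 genes held 96.5% of the total. Of the 10 leading genes of each library 8 were shared, of the 40 leading genes 33 and of the 100 leading genes 87. The curves of the cumulative share lay close together over their whole length.

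**Figure D1:**
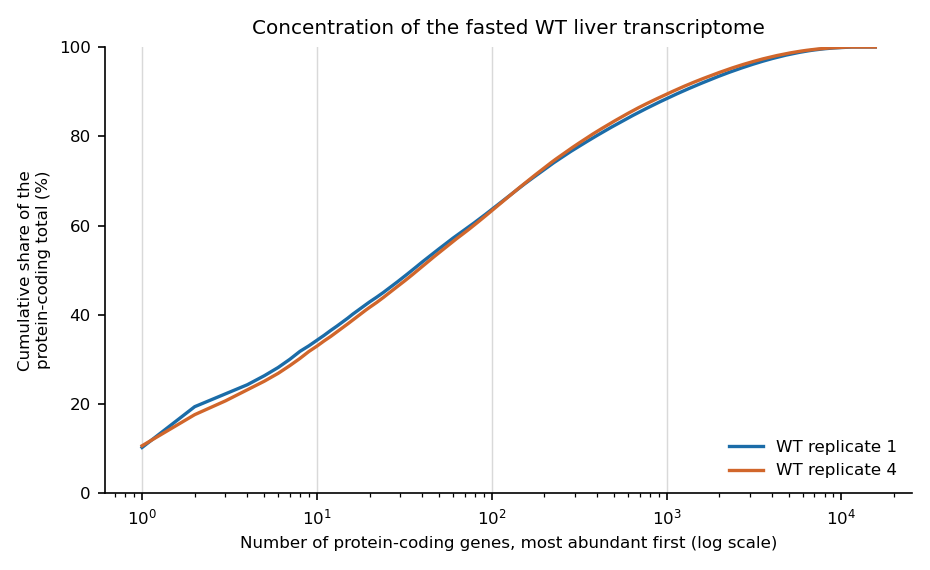
Cumulative share of the protein-coding total (y axis, %) against the number of genes taken from the most abundant downward (x axis, log scale), 1 line per WT library, each ranked on its own. The first gene reached 10.3% in replicate 1 and 10.7% in replicate 4, and the first 100 genes reached 63.6% and 63.3%.

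Apolipoproteins, the protein part of lipoprotein particles, led the list and held 21.5% of the total in replicate 1 and 20.3% in replicate 4. *apoa2* (ENSDARG00000015866, chromosome 16), a main protein of high-density lipoprotein, ranked first with 95170 reads in replicate 1 and 90495 reads in replicate 4, or 10.3% and 10.7% of the total. *apoa1b* on chromosome 15, the other main protein of high-density lipoprotein, followed with 84525 and 59199 reads, or 9.14% and 6.97%. The first gene was thus nearly level between the libraries, at a ratio of replicate 4 to replicate 1 of 1.05 (95% interval 1.04 to 1.062), while *apoa1b* was 1.29-fold higher in replicate 1 (1.28 to 1.304). *apoc1*, a small apolipoprotein that acts on lipases and lipid transfer, ranked number 10 with 10439 and 13695 reads. Together these 3 genes held most of the apolipoprotein share, and *apoa2* alone held 50.1% of it.

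The other apolipoproteins were far lower. *apom*, which carries sphingosine-1-phosphate, stood at 2589 and 1922 TMM, *apobb.1*, the large structural protein of particles that export triglyceride, at 772 and 1132 TMM, and *afp4*, an antifreeze protein related to the apolipoproteins, at 965 and 898 TMM. *apoeb*, a ligand of lipoprotein receptors, had 77 reads in replicate 1 and 307 in replicate 4 and was 4.41-fold higher in replicate 4 (3.43 to 5.74). Of the 22 apolipoprotein genes, 12 averaged 10 TMM or more, 2 of the 22 had no read in either library, and 2 of the 12 differed at least 2-fold, both with more in replicate 4. Over all 3331 genes averaging 10 TMM or more, 9.43% were at least 2-fold higher in replicate 4 and 12.2% in replicate 1.

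Among the secreted lists, plasma carriers and other secreted liver proteins followed with 8.20% and 6.204% of the total. *fetub*, a secreted protease inhibitor of the fetuin family, ranked number 3 among all genes with 26552 and 20936 reads, or 2.87% and 2.47%. *rbp4*, the retinol carrier of plasma, ranked number 6 with 18960 and 13235 reads. *ttr*, which binds thyroid hormone and, in mammals, the retinol carrier, stood at 1599 and 2754 TMM, and thus leaned to the other library than *rbp4* did. *tfa*, the iron carrier transferrin, stood at 2650 and 1775 TMM, with 3734 and 2260 reads. *fn1b*, a fibronectin that was in no functional list, ranked number 12 with 10117 and 8482 reads.

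Protease inhibitors, clotting factors and complement each held below 1% of the total. *serpina1l* and *serpina1*, relatives of the elastase inhibitor alpha-1-antitrypsin, led the protease inhibitors with 3039 and 2730 TMM and with 1109 and 978 TMM. The fibrinogen chains led the clotting factors, where *fga* stood at 1820 and 1065 TMM, *fgb* at 1318 and 1279 TMM and *fgg* at 576 and 461 TMM, although the 3 chains form 1 protein in equal numbers. None of the 12 coagulation and fibrinolysis genes averaging 10 TMM or more differed 2-fold between the libraries. Of all 3331 genes at that level 21.7% did, and 10.1% of those at 300 TMM and above. With 12 genes, the list is not set apart by this count. *c9*, the pore-forming component of complement, led the complement genes with 3579 and 2404 reads and held 41.7% of the complement share.

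Taken as 1 class, the 6 lists of secreted plasma proteins (apolipoproteins, carriers, protease inhibitors, coagulation factors, complement, and acute-phase and antimicrobial proteins) held 31.2% ± 3.13 (SD, n = 2) of the total, 33.4% in replicate 1 and 29.0% in replicate 4. The apparatus that folds and exports such proteins, from the translocon to the chaperones of the endoplasmic reticulum (ER), held 1.02% and 0.829%. Its leading genes were *sec61a1*, the channel of the ER membrane, at 776 and 599 TMM and *ssr2*, a channel-associated subunit, at 647 and 433 TMM.

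Messenger RNAs of the mitochondrial genome formed the next class, with 11.3% in replicate 1 and 11.9% in replicate 4 from 13 genes. *mt-nd4*, a subunit of complex I, was the gene of rank 4 with 18633 and 26245 reads, and *mt-co2*, *mt-atp6* and *mt-co1*, subunits of cytochrome oxidase and of ATP synthase, ranked number 5, 7 and 8. *mt-co2* and *mt-atp6* were nearly level between the libraries, at 12112 and 12854 TMM and at 11708 and 11745 TMM. *mt-nd4* and *mt-co1* moved apart in opposite directions, the former 1.56-fold higher in replicate 4 (1.53 to 1.59) and the latter 1.54-fold higher in replicate 1 (1.501 to 1.58). None of the 13 genes differed 2-fold, beside 21.7% of all 3331 genes averaging 10 TMM or more and 10.1% of those at 300 TMM and above. With 13 genes, the class is not set apart by this count. Some mitochondrial genes lie against or over each other and the strand setting of the counting is not given in the sources used here, so the split between neighbours, and the level of *mt-nd6* on the other strand (5746 and 5597 TMM), are uncertain.

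Nuclear genes for subunits of oxidative phosphorylation held 1.92% and 2.31%, well below the mitochondrially encoded part. *atp5mc3b* and *atp5f1b*, subunits of ATP synthase, led with 1879 and 2584 TMM and with 1580 and 2027 TMM. *slc25a5*, the carrier that exchanges ADP for ATP across the inner membrane, led the list of carriers named slc25a and held 75.1% of its share, with 4401 and 4800 reads. *ucp1*, an uncoupling protein known in mammals from brown fat, is of the same carrier family but was not on that list, and it was more abundant than *slc25a5*. It ranked number 13, with 11507 reads in replicate 1 and 6855 in replicate 4. The list of the citric acid cycle and pyruvate oxidation was led by *mdh1aa*, the cytosolic malate dehydrogenase, at 2842 and 2331 TMM, and the list held 0.737% and 0.695%.

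Cytosolic ribosomal proteins held 7.92% and 9.02%, spread over many genes. Of 84 such genes, 81 averaged 10 TMM or more, the first of them, *rplp0* of the ribosomal stalk, held 10.5% of the class with 8448 and 7362 reads, and *rps9* followed at 2527 and 3037 TMM. Of the 81 genes, 74 were higher in replicate 4, with a median log2 ratio of 0.25 beside 0.06 over all 3331 genes, but 1 of them was 2-fold higher and none was 2-fold lower. By comparison, 9.43% of all 3331 genes were at least 2-fold higher in replicate 4 and 12.2% in replicate 1. Translation factors and ribosome-associated proteins held 2.69% and 3.48%, led by the elongation factor *eef2b* at 2698 and 3713 TMM, and 45 of 53 genes were higher in replicate 4, beside 1811 (54.4%) of all 3331 genes. Ribosomal proteins of the mitochondrion, at 0.152% and 0.190%, were far below those of the cytosol.

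**Figure D2:**
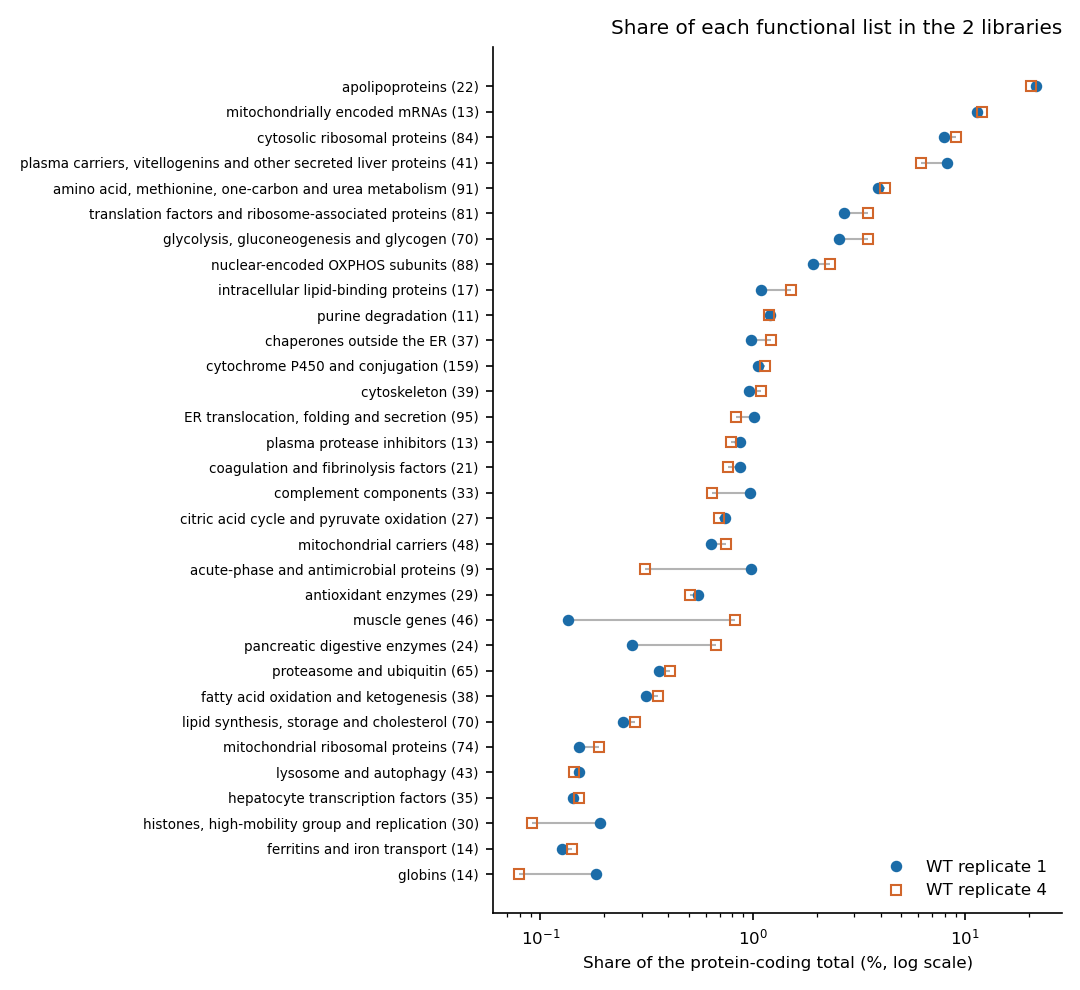
Share of the protein-coding total (x axis, %, log scale) of each functional list (y axis, with the number of its protein-coding genes), with a filled circle for WT replicate 1 and an open square for WT replicate 4. Apolipoproteins stood at 21.5% and 20.3% and mitochondrially encoded mRNAs at 11.3% and 11.9%, whereas muscle genes stood at 0.135% and 0.824%.

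Enzymes of amino acid, methionine and one-carbon metabolism were the largest metabolic class, with 3.89% and 4.19%. *ahcy*, which splits S-adenosylhomocysteine, led with 7048 and 8508 reads. It was followed by *agxtb*, an aminotransferase of glyoxylate and alanine, with 4822 and 4684 reads, *bhmt*, which remakes methionine from homocysteine and betaine, with 4845 and 4412 reads, *aldh6a1* of valine breakdown with 4410 and 4178 reads and *gatm*, the first enzyme of creatine synthesis, with 3517 and 3310 reads. The levels of the last 4 differed by less than 1.1-fold between the libraries. *hpdb*, a dioxygenase of tyrosine breakdown, was the exception by size, with 1 read in replicate 1 and 27 in replicate 4 (29.9-fold, 4.92 to 1223).

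Purine breakdown held 1.198% and 1.191% through few genes. *uox*, the urate oxidase of the peroxisome that humans have lost, ranked number 19 with 5820 and 5653 reads and held 54.2% of the class, and *pnp4b* and *pnp5a*, purine nucleoside phosphorylases, followed at 1973 and 1653 TMM and at 893 and 860 TMM. Cytochrome P450 and conjugation enzymes held 1.057% and 1.14% over 54 genes of at least 10 TMM. Their leading genes were *cyp24a1*, which inactivates vitamin D, at 969 and 507 TMM, *gstr*, a glutathione transferase, at 519 and 848 TMM and *abcb11b*, of the family of the bile salt export pump, at 441 and 568 TMM. *cyp7a1*, the rate-limiting enzyme of bile acid synthesis, stood at 341 and 539 TMM.

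Glycolysis, gluconeogenesis and glycogen genes held 2.56% and 3.47%, and 49.1% of this was *gapdh*, which works in both directions of the pathway and ranked number 9 with 11345 and 14727 reads. *pklr*, the pyruvate kinase of liver and red cells, stood at 810 and 1677 TMM. Some genes of glucose output were at close levels in both libraries. *pck1*, which commits oxaloacetate to gluconeogenesis, had 418 and 395 reads and *g6pca.2*, a glucose-6-phosphatase, had 590 and 486 reads, whereas *tat*, which frees tyrosine nitrogen, had 174 and 94 reads. *gck*, the glucokinase that traps glucose in the hepatocyte and is known in mammals to follow insulin, behaved otherwise, with 6 reads in replicate 1 and 373 in replicate 4, a ratio of 68.8 (31.3 to 189). *slc2a2*, the glucose transporter of liver, had 1118 and 2025 reads and was 2.004-fold higher in the same library.

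Lipid genes other than apolipoproteins took little of the total. Intracellular lipid-binding proteins held 1.097% and 1.516%, with *fabp10a*, the fatty acid binding protein of fish liver, at 4317 and 6237 TMM, *fabp3* at 1903 and 2688 TMM and *scp2a*, a sterol carrier of the peroxisome, at 765 and 1007 TMM. Fatty acid oxidation and ketogenesis genes held 0.314% and 0.357%, led by *acadm*, the medium-chain acyl-CoA dehydrogenase, at 450 and 573 TMM. Lipid synthesis, storage and cholesterol genes held 0.244% and 0.279%, led by the lipoprotein receptor *ldlra* at 385 and 459 TMM. *fasn*, fatty acid synthase, had 2 and 3 reads, and *srebf1*, its main regulator in mammals, had 0 reads in replicate 1 and 1 read in replicate 4.

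Of 48 genes on the list of fasting response genes, 44 had a read and 26 averaged 10 TMM or more. *igfbp1b* and *igfbp1a*, binding proteins of insulin-like growth factors that rise in mammalian liver when insulin is low, led this list and ranked number 26 and 37 among all genes. *igfbp1b* had 6574 reads in replicate 1 and 2493 in replicate 4, and *igfbp1a* had 4809 and 1830. They were the only 2 of the 40 most abundant genes to differ at least 2-fold, at 2.38-fold (2.27 to 2.496) and 2.37-fold (2.25 to 2.51) higher in replicate 1, while 34 of the 40 agreed within 1.5-fold. Among the other members, *txnipa*, an inhibitor of glucose uptake, had 179 and 120 reads, *angptl4*, an inhibitor of lipoprotein lipase, had 62 and 77 reads, and *foxo1a*, a transcription factor held back by insulin, had 42 and 35 reads. On this list 3 genes were at least 2-fold higher in each library, namely *slc2a2*, *gck* and *txnipb* in replicate 4 and *igfbp1b*, *igfbp1a* and *foxo3a* in replicate 1. Over all 3331 genes averaging 10 TMM or more, 9.43% were at least 2-fold higher in replicate 4 and 12.2% in replicate 1, so the list is not set apart by these counts.

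Transcription factors of the hepatocyte were read at low levels, 0.142% and 0.152% of the total for the 35 genes listed. *cebpd* and *cebpb*, which act on plasma protein genes, had 233 and 163 reads and 180 and 126 reads. *prox1a*, needed for liver growth, had 165 and 218 reads, the pioneer factor *foxa1* had 154 and 189 reads, *klf15*, a factor of amino acid breakdown, had 145 and 158 reads and *nr1h5*, a relative of the bile acid receptor, had 73 and 85 reads. *hnf4a*, a defining factor of hepatocytes, had only 2 reads in each library and *cebpa* had 5 and 6 reads. At this depth those levels are at or near the floor of 3 reads. *pparaa*, *nr1i2* and *hhex* had no read in either library, which allows up to 2.13 TMM in replicate 1 and 2.36 TMM in replicate 4.

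The tissue label was held against markers of the hepatocyte and of 16 other cell types. The 4 hepatocyte markers *apoa2*, *fabp10a*, *tfa* and *hamp* were high in both libraries and summed to 77760 TMM in replicate 1 and 79854 TMM in replicate 4, or 11.84% and 11.98% of the total, although *hamp* differed 4.18-fold between them. Most of these sums was *apoa2*, at 67534 and 71063 TMM. The sums of the other cell types were far smaller than the hepatocyte sums, a gap that rests largely on *apoa2*. The remaining hepatocyte markers stood at 4317 and 6237 TMM (*fabp10a*), 2650 and 1775 TMM (*tfa*) and 3259 and 780 TMM (*hamp*). Among the yolk syncytial layer markers, *apobb.1* stood at 772 and 1132 TMM and *apoa4b.1* at 704 and 961 TMM. Both are also on the apolipoprotein list. Exocrine pancreas markers summed to 1652 and 4161 TMM, erythrocyte markers to 1099 and 505 TMM, skeletal muscle markers to 348 and 2276 TMM, neuron markers to 1053 and 79.3 TMM and epidermis markers to 123 and 561 TMM. In such bulk samples fewer cells of a type and less RNA per cell cannot be told apart.

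Markers of several cell types of the liver and its surroundings, though not of all, had few or no reads. Few reads of a marker do not show that its cell type was absent. Macrophage markers (*mfap4*, *marco*, *csf1ra*) had 7 and 2 reads in all, neutrophil markers had 0 and 4 reads, and *lrata*, a defining gene of stellate cells, had none. The macrophage sum leaves out *MFAP4*, a chromosome 1 record with the same symbol in capitals, which had 339 and 20 reads. Endothelial markers summed to 58.2 and 53.4 TMM. Biliary markers summed to 863 and 1223 TMM, of which *anxa4* made 94.9%, while *sox9b*, a defining factor of these cells, had 18 and 22 reads. Proliferating cell markers summed to 73.1 and 52.6 TMM, and *mki67* had 4 and 2 reads. Of the endocrine pancreas, *ins* had no read and *sst1.1* had 41 and 3 reads, and *alas2*, the heme synthesis enzyme of red cells, had no read beside the globins.

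**Figure D3:**
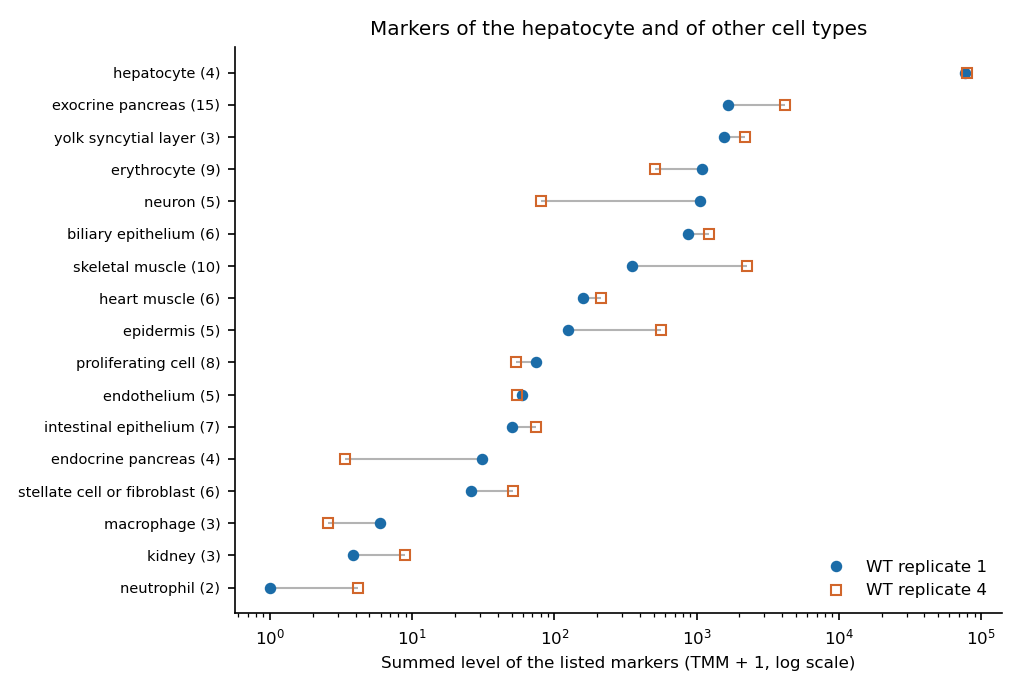
Summed level of the markers (x axis, TMM + 1, log scale) of each cell type (y axis, with the number of genes summed), with a filled circle for WT replicate 1 and an open square for WT replicate 4. Hepatocyte markers stood at 77760 and 79854 TMM, and the neuron (1053 and 79.3 TMM) and skeletal muscle (348 and 2276 TMM) sums lay far apart in opposite directions.

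Large ratios between the 2 libraries were less frequent among abundant genes. Some genes abundant by their mean still differed strongly. *hamp* (4.18-fold), *hpxb* (17.6-fold) and *itln3* (116-fold) were higher in replicate 1, and *atp2a1* (14.2-fold) and *ckmb* (8.44-fold) in replicate 4. Such a mean can rest on 1 library, as for *itln3* at 1549 and 13.3 TMM. At 300 TMM and above, 5.84% of genes were at least 2-fold higher in replicate 4 and 4.28% in replicate 1. Of 3331 genes averaging 10 TMM or more, 2005 (60.2%) lay within 1.5-fold of each other, 314 (9.43%) were at least 2-fold higher in replicate 4 and 408 (12.2%) in replicate 1, so that 21.7% differed at least 2-fold. Over all 3331 genes the counting interval left out a ratio of 1 for 1305 (39.2%). The portion 2-fold apart fell with level, from 28.3% between 10 and 20 TMM over 16.2% between 50 and 100 TMM to 10.1% at 300 TMM and above. By contrast, the portion whose counting interval left out a ratio of 1 rose, from 26.1% to 77.0% between the same lowest and highest levels. Counting intervals are narrower at high levels, where more reads stand behind a gene. Across these genes the log2 levels of the libraries had a Pearson correlation of 0.81 and a Spearman correlation of 0.71, where the points are genes of the same 2 libraries and not replicates.

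**Figure D4:**
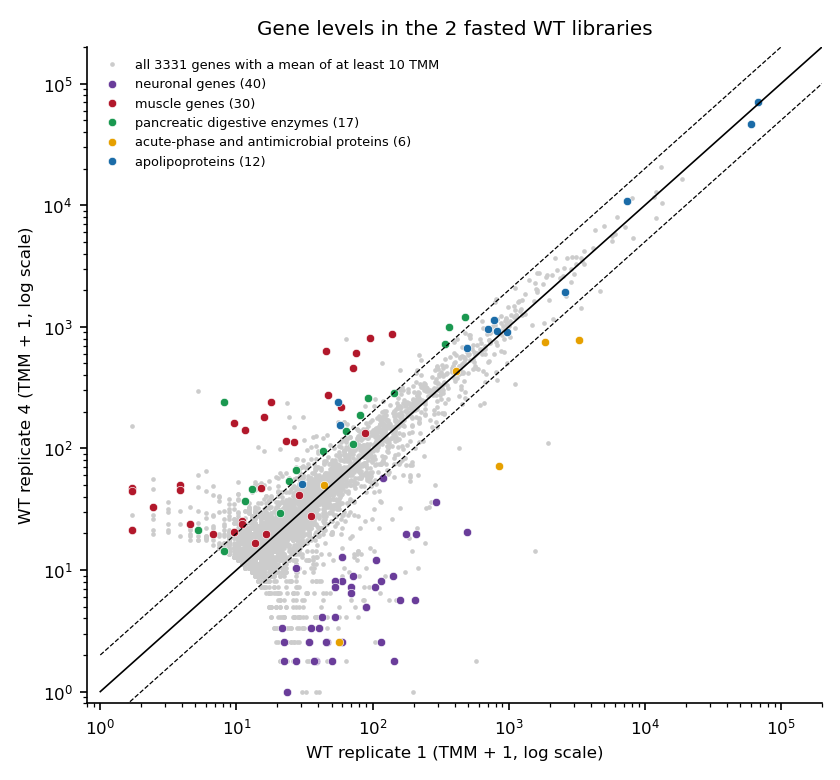
Level of each of the 3331 protein-coding genes averaging 10 TMM or more in WT replicate 1 (x axis) and WT replicate 4 (y axis), both as TMM + 1 on log scales, with the line of equality and dashed lines at 2-fold. Coloured points mark 5 lists. Most apolipoproteins run along the line of equality, while *apoeb* and *apoda.2* lie past the upper 2-fold line. Pancreatic digestive enzymes and most muscle genes lie above the line of equality, and neuronal genes lie below it.

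Markers of the neuron summed to a level 13.3-fold higher in replicate 1. All 5 of them were higher there, among them *stmn1b*, a regulator of neuronal microtubules, with 691 and 25 reads (24.98-fold, 16.8 to 38.9) and *elavl4*, a neuronal RNA-binding protein, with 411 and 45 reads (8.25-fold, 6.06 to 11.5). A wider list of neuronal genes was written after the values had been seen and so is a description only. It held 0.559% of the total in replicate 1 and 0.0445% in replicate 4. Most of its 40 genes of at least 10 TMM reached that mean through replicate 1 alone, so that no count or median over them is read as a result. Several of the genes with the largest ratios of all were of this kind, such as *sv2a*, a protein of synaptic vesicles, with 200 reads and 1 read (181-fold, 32.1 to 7174), *adcyap1b*, a neuropeptide, with 160 and 2 reads, *rln3a*, a relaxin-family peptide, with 88 reads and 1 read, *nsg2* of neuronal endosomes with 70 reads and 1 read, *rtn1b*, a reticulon, with 53 reads and 1 read and *pcp4a*, a calmodulin-binding peptide named after Purkinje cells, with 145 and 2 reads. *BX908782.2* (ENSDARG00000101479, chromosome 2), which the files give no name, had 806 reads in replicate 1 and 1 read in replicate 4, a ratio of 728 (130 to 28803), and *noxo1a*, an organizer of an NADPH oxidase, had 64 reads and 1 read. The part of other tissue in these differences was not tested.

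Isoforms known in mammals from brain ran with these genes within the metabolic lists. *aldocb*, an aldolase of the brain type, had 96 and 6 reads, *eno2*, the neuronal enolase, had 30 and 2 reads, and *fabp7a*, the brain fatty acid binding protein, had 120 and 6 reads. Of the 38 glycolysis, gluconeogenesis and glycogen genes averaging 10 TMM or more, 7 were 2-fold higher in replicate 1 and 5 in replicate 4. Counted here is *gck*, which reached that mean through replicate 4 alone with 6 and 373 reads. Over all 3331 genes the shares were 12.2% and 9.43%. Muscle isoforms ran the other way, with *pkmb*, of the muscle type of pyruvate kinase, at 6 and 60 reads. *aldocb*, *eno2* and *fabp7a* reached a mean of 10 TMM through replicate 1 alone, and *pkmb* through replicate 4 alone.

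Muscle genes, pancreatic enzymes and keratins were mostly higher in replicate 4. Many of the 30 muscle genes averaging 10 TMM or more reached that mean through replicate 4 alone, so that no count or median over them is read as a result. *actc1b*, an actin of striated muscle, had 193 and 1112 reads (6.38-fold, 5.47 to 7.47), and *ckmb*, the creatine kinase of muscle, had 134 and 1022 reads (8.44-fold, 7.04 to 10.2). The fast myosins *myhz2* and *myhz1.1* had 1 read each in replicate 1 and 59 and 56 in replicate 4, and the troponin *tnnt3a* had 1 and 26 reads, although near-identical myosin copies may share reads. Heart markers moved less, with *myl7*, the atrial myosin light chain, at 123 and 168 reads and *cmlc1* at 48 and 34 reads.

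Of 17 pancreatic digestive enzymes averaging 10 TMM or more, all were higher in replicate 4 and 13 at least 2-fold. Over all 3331 genes at that level, 9.43% were at least 2-fold higher in replicate 4. Some of the 17, such as *ela2l* and *zgc:92137*, reached that mean through replicate 4 alone. The counting intervals of *sycn.2* and *zgc:136461* included a ratio of 1. *prss59.2*, a trypsin, had 667 and 1523 reads (2.53-fold, 2.31 to 2.77), and *ela2l*, an elastase, had 10 and 304 reads (33.6-fold, 18.04 to 70.9), far beyond its relative *ela2* with 202 and 364 reads. Of the epidermal keratins, *krt91* had 163 and 639 reads and *cyt1* had 1 and 35 reads, and *and3*, an actinodin of the fin fold, had 2 and 58 reads. *slc13a2*, a carrier of citric acid cycle intermediates, had 2 and 70 reads. Globins leaned to replicate 1, where all 8 genes of at least 10 TMM were higher, 5 of them at least 2-fold. Over all 3331 genes, 12.2% were at least 2-fold higher in replicate 1. The counting intervals of *hbbe1.1* and *hbbe2* included a ratio of 1, and *hbae3* led with 453 and 250 reads. Without 100 listed neuronal, muscle, pancreatic, epidermal and erythroid genes, 19.7% of the remaining 3231 genes differed at least 2-fold. This was counted after the data had been seen. Only listed genes were removed, and the part of other tissue in the remaining differences was not tested.

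Acute-phase proteins, which the liver releases in inflammation, had the largest ratio of the 6 secreted lists, with a summed level 3.11-fold higher in replicate 1. The 9 genes of the acute-phase and antimicrobial list held 0.984% of the total in replicate 1 and 0.312% in replicate 4. Of the 6 genes averaging 10 TMM or more, 4 were at least 2-fold higher in replicate 1, beside 12.2% of all 3331 genes. One of the 4, *saa*, reached that mean through replicate 1 alone. *crp3*, with 575 and 549 reads, was nearly level between the libraries. *hamp*, which encodes the iron hormone hepcidin, had 4593 and 993 reads (4.18-fold, 3.90 to 4.48). *lect2l*, a relative of a leukocyte chemotaxin, had 1198 and 90 reads, and *saa*, serum amyloid A, had 78 and 2 reads (35.2-fold, 9.43 to 296). *crp2* of the pentraxin family was listed under 2 identifiers on chromosome 24, the first with 2603 and 945 reads and the second with 61 and 63 reads.

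The following genes were picked after their values had been seen, most of them because they were higher in replicate 1. A wider list of acute-phase response genes was also written then, so that no count over it is given. *hpxb*, which binds free heme, had 2748 and 141 reads (17.6-fold, 14.9 to 21.0), and *itln3*, an intelectin that binds sugars of microbes, had 2183 and 17 reads (116-fold, 72.3 to 200). *hp*, which binds free hemoglobin, was listed under 2 identifiers. That on chromosome 7 had 279 reads in replicate 1 and none in replicate 4. With replicate 4 set to the floor of 3 reads it was 84.0-fold higher in replicate 1, and its counting interval began at 67.9-fold. That on chromosome 8 had 780 and 655 reads. The copper carrier *cp* had 930 and 298 reads, complement *c3a.1* had 1557 and 427 reads and *c3a.3* had 1147 and 465 reads, *cfb* had 333 and 110 reads, and the lysozyme *lygl1* had 301 and 12 reads. Copies of *c3a* may share reads. Not all plasma protein genes differed in this way, since *c9*, *fgb* and *serpina1l* lay within 1.5-fold. Of 88 secreted genes of at least 10 TMM, 18 were 2-fold higher in replicate 1 and 6 in replicate 4. Over all 3331 genes the shares were 12.2% and 9.43%. Some of the 18, such as *saa* and the *hp* of chromosome 7, reached that mean through replicate 1 alone. Of the 60 genes for ER translocation, folding and secretion, 7 were 2-fold higher in replicate 1 and 3 in replicate 4. For replicate 1 this is near the 12.2% of all genes, and for replicate 4 the share of all genes was 9.43%, so the list is not set apart by these counts. The chaperones *hsp90b1*, with 108 and 17 reads, and *pdia4*, with 83 and 10 reads, were among the 7, and *pdia4* reached a mean of 10 TMM through replicate 1 alone. The macrophage and neutrophil markers had 7 and 2 reads and 0 and 4 reads, while *MFAP4*, a record on chromosome 1 that shares its symbol with the macrophage marker *mfap4* apart from the capitals, had 339 and 20 reads (15.3-fold, 9.76 to 25.4). The part of immune cells in these differences was not tested.

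**Figure D5:**
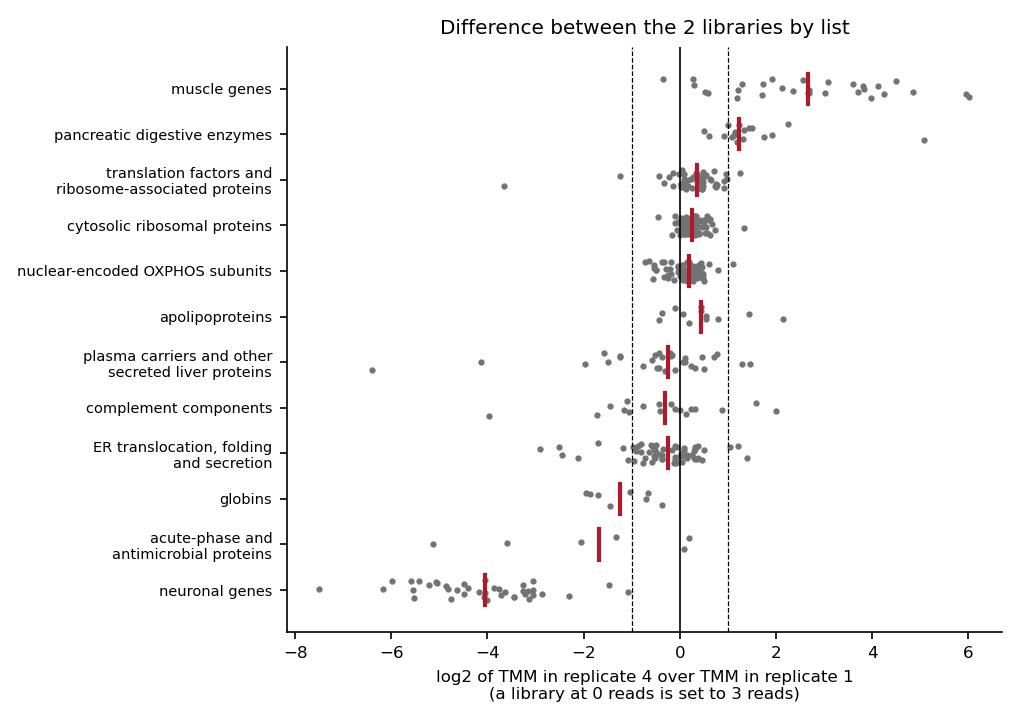
Ratio of the level in WT replicate 4 to that in WT replicate 1 (x axis, log2), 1 grey point per gene averaging 10 TMM or more, for 12 lists (y axis), with a red bar at the median of each list and dashed lines at 2-fold. Cytosolic ribosomal proteins kept close to equality, with a median of 0.25. The neuronal list was written after the values had been seen, and genes high in 1 library can pass the filter through that library alone. This holds for many genes of the neuronal and muscle lists, so the red bars of these lists are not read as results.

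The genome was used unevenly. Chromosome 16 held 17.1% of the protein-coding total in replicate 1 and 18.4% in replicate 4, with 165 (4.95%) of the 3331 genes of at least 10 TMM and 10 of the 100 most abundant genes. Of the 40 leading genes, 5 lie on it, *apoa2*, *gapdh*, *apoc1*, *fabp10a* and *rps9*. Chromosome 15, with *apoa1b*, held 9.92% on average. Further leading genes of the 40 were *actb2*, a cytoskeletal actin, with 4118 and 4745 reads, *tpt1*, a translation-associated protein, with 3171 and 3705 reads, *eef1a1l1*, an elongation factor, with 2930 and 3400 reads and *C20H6orf58* with 3353 and 3179 reads. Genes known only by a clone name were among them too, *zgc:112265* with 5006 and 4145 reads and *si:ch1073-464p5.5* with 3066 and 4678 reads.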

How the data were processed

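RNA of dissected livers from fasted WT larvae at 6 dpf was analysed in 2 libraries (replicates 1 and 4). The authors prepared CEL-Seq2 libraries with 9 cycles of PCR, extracted UMIs with UMI-tools 1.1.1, trimmed reads with Trim Galore 0.6.7, mapped them to GRCz11 with HISAT2 2.2.1, counted genes with featureCounts 2.0.1, collapsed reads that shared a UMI, normalized them by TMM and deposited the values as log2(TMM + 1). The annotation release and strand setting are not given in the sources used here. The 2 *pex5*-/- columns were not used.

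The logarithm was undone (2 to the power of the value, minus 1). In both libraries 100% of the values were whole multiples of 1 step (tolerance 0.01), which gave deduplicated reads. Shares were computed over 15615 protein-coding genes. Ratios of replicate 4 to replicate 1 were given for genes averaging 10 TMM or more, with exact binomial 95% intervals on the reads, and a library at 0 was set to a floor of 3 reads. Intervals and floors cover counting error only. No test was possible with 1 group. The scripts were tested on simulated data.

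The 32 functional lists (1481 genes by symbol, 26 through RefSeq synonyms of another assembly) and 17 marker lists were chosen with earlier results of these data known, corrected after the values had been seen, and 3 further lists were added then. Named genes are the 40 most abundant, the first 3 of a list, the 10 with the largest ratio each way (at least 20 reads in the higher library), markers, and fixed lists of fasting response genes and hepatocyte transcription factors. Genes outside these were chosen after their values were seen. A few genes that the rule would name are not reported here. Symbols with more than 1 identifier are uncertain where copies share reads. Alternatives covered the denominator, the filter, the scaling and each library left out. Values were computed with numpy 2.4.6, scipy 1.17.1 and pandas 2.3.3 in Python 3.11.15, and plots were drawn with matplotlib 3.10.9.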

Additional observations from a re-analysis of the deposited data

How the results depend on the processing

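Shares within a library do not depend on its scaling, but they do on the denominator. With all listed genes as the denominator, the 10 leading genes, then including ribosomal RNA of the mitochondrion, held 50.97%, secreted plasma proteins 21.6%, cytosolic ribosomal proteins 5.95%, mitochondrially encoded mRNAs 8.05% and nuclear OXPHOS genes 1.47%. Without genes of the mitochondrial genome, secreted plasma proteins held 35.3% and cytosolic ribosomal proteins 9.58%, and with genes of at least 10 TMM alone the 10 leading genes held 34.8%. With 1 library left out in turn, the shares ranged from 32.99% to 34.3% (10 leading genes), 29.0% to 33.4% (secreted), 7.92% to 9.02% (ribosomal), 11.3% to 11.9% (mitochondrially encoded) and 1.92% to 2.31% (nuclear OXPHOS). Counts of genes 2-fold apart moved with the filter, to 72 higher in replicate 4 and 78 in replicate 1 at a mean of at least 50 TMM, and to 1002 and 1433 at a mean of at least 2 TMM, where few reads stand behind a gene and more genes were counted. Scaling to equal totals gave 300 and 423 genes, scaling by the median ratio 283 and 435, and the median of all genes lay 0.06 (log2) toward replicate 4. With both libraries needed for a ratio, none could be left out of those counts. No paired analysis was possible because 1 group alone was analysed. With 2 libraries of 1 group, the spread between larvae is poorly known, and no fed liver was analysed here.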

Other observations

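Interferon-stimulated genes, a list written after the values had been seen, held a few genes with more reads in replicate 4. *isg15*, a ubiquitin-like protein induced by interferon, had 1 read in replicate 1 and 195 in replicate 4, a ratio of 216 (95% counting interval 38.3 to 8566). *ifi45* had 3 and 39 reads (14.4, 4.57 to 72.8) and *irf7*, a regulator of the interferon response, had 7 and 21 reads. *stat1a*, which carries the interferon signal, moved less with 72 and 95 reads. The list held 0.0118% of the protein-coding total in replicate 1 and 0.0503% in replicate 4. These genes were picked after their ratios were known, and *isg15*, *ifi45* and *irf7* reach a mean of 10 TMM through replicate 4.

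On the list of histones, high-mobility group proteins and replication factors, the genes averaging 10 TMM or more leaned to replicate 1. All 11 of them were higher there, 5 at least 2-fold. Among the 5, *hmgb1b*, with 35 and 7 reads, reached that mean through replicate 1 alone. By comparison, 12.2% of all 3331 genes at that level were at least 2-fold higher in replicate 1. Of the same 3331 genes, 54.4% were higher in replicate 4 by any margin. *hmgb3a* had the largest ratio of the 11 with 261 and 22 reads (10.7-fold, 6.93 to 17.4). The counting interval of *hmga1a*, with 113 and 80 reads, included a ratio of 1. Members of the list below 10 TMM had few reads and did not all lean this way. Markers of proliferating cells were low in both libraries (73.1 and 52.6 TMM).

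Outside the protein-coding genes, the large share of mitochondrial ribosomal RNA came almost wholly from 1 gene, with 387547 reads in replicate 1 and 346255 in replicate 4, and the long non-coding RNA *CR383676.2* on chromosome 14 had 13048 and 13310 reads, more than all but a few protein-coding genes.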
